A study of Homo sapiens with 6 samples.

Results

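The 10 genes described here cover how a cell takes up, stores, exports and senses iron and how it guards its membranes against ferroptosis, the iron-dependent form of cell death driven by lipid peroxides. The members are FTH1, FTL, TFRC, SLC40A1, SLC11A2, IREB2, ACO1, NCOA4, GPX4 and ACSL4, chosen by symbol among the 36884 genes of the count table. All 10 were found, each under 1 identifier, and 9 had enough counts to be tested. Messenger RNA levels were read from RPE1, a non-transformed, immortalized line of human retinal pigment epithelium, 48 h after transfection with control siRNA (siCon, 3 libraries) or siRNA against the kinase MK5 (siMK5, 3 libraries). In both groups LATS1 and LATS2, the Hippo pathway kinases that restrain the coactivators YAP and TAZ, had been inactivated with CRISPR-Cas9, so the control cells carry that inactivation too. The labels do not say whether the edited cells are a single clone, and they give 1 control and 1 MK5 siRNA label without siRNA sequences. The comparison asks what lowering MK5 changes in these cells.

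Iron enters most cells bound to transferrin through the transferrin receptor TFRC and leaves endosomes through the transporter SLC11A2 (DMT1). Iron that is not used at once is stored inside ferritin, a shell of FTH1 and FTL subunits, and leaves the cell through SLC40A1 (ferroportin). When iron is scarce, the iron regulatory proteins IRP1, encoded by ACO1, and IRP2, encoded by IREB2, bind a stem-loop called the iron-responsive element. In the 5′ UTR of FTH1, FTL and SLC40A1 such binding blocks translation, and in the 3′ UTR of TFRC it protects the mRNA from decay. NCOA4 delivers ferritin to lysosomes, GPX4 reduces lipid peroxides with glutathione, and ACSL4 loads membranes with the polyunsaturated fatty acids that are peroxidized. Counts of RNA do not measure translation, protein or iron.

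The iron-responsive elements show how these mRNAs are tied together, and which end of the mRNA carries the element. They were searched on the sense strand in annotated UTRs of GENCODE 29 transcripts (GRCh38) as a CAGTGN loop with a C at the 6th base before it and at least 4 of the 5 facing stem bases paired, G with T included. Each line gives 30 bases, 5′ to 3′, in DNA letters, with the 6 loop bases in capitals.
FTH1, 5′ UTR: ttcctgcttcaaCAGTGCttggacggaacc
FTL, 5′ UTR: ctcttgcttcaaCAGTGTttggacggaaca
SLC40A1, 5′ UTR: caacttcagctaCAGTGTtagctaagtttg
TFRC, 3′ UTR, site 1: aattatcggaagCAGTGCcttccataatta
TFRC, 3′ UTR, site 2: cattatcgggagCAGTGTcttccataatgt
TFRC, 3′ UTR, site 3: ctgtatcggagaCAGTGAtctccatatgtt
TFRC, 3′ UTR, site 4: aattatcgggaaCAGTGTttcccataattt
SLC11A2, 3′ UTR: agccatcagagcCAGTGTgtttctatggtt

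In GRCh38 the FTH1 element lies at chr11:61967573-61967602 on the minus strand and the FTL element at chr19:48965335-48965364 on the plus strand. The SLC40A1 element lies at chr2:189580660-189580689, minus strand, and the SLC11A2 element at chr12:50988268-50988297, minus strand. The TFRC sites 1 to 4 lie on the minus strand at chr3:196050978-196051007, chr3:196050574-196050603, chr3:196050509-196050538 and chr3:196050462-196050491. All but the SLC11A2 element had 5 of 5 stem bases paired, and the SLC11A2 element had 4. That element was in 5 of the 11 coding transcripts of SLC11A2, so the count per gene does not tell transcripts with it from those without it. Matches with 5 of 5 pairs were rare, in the 5′ UTR of 0.158% and the 3′ UTR of 0.651% of 19666 coding genes. With at least 4 pairs the shares were 1.23% and 4.52%, and under that looser rule IREB2 and ACO1 also held a match in the 3′ UTR. A match of letters is a description and does not show that a site is bound.

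The libraries held between 27188074 and 28236773 counts. MAPKAPK5, which encodes MK5, stood at 29.05 to 35.6 CPM in siCon and 14.1 to 17.4 CPM in siMK5 libraries (log2 −1.01 ± 0.14, SE, n = 3 each; edgeR adjusted p = 0.00169). CPM here are counts scaled by a library's total over the genes tested times its TMM factor, so their sum differs between libraries. The TMM factors ran from 0.925 in siCon replicate 1 to 1.058 in siMK5 replicate 2. All adjusted p-values are from edgeR's quasi-likelihood test over the 13431 genes tested, with a threshold of 0.05. Across these genes 46.2% passed, with 22.5% higher and 23.7% lower after MK5 siRNA. The log2 level of replicate 1 differed from the mean of replicates 2 and 3 by a median of 0.37 in siCon. In siMK5 the median was 0.18, both over all genes tested. The same medians were not computed for replicates 2 and 3. Of 11 retinal pigment and epithelial markers, KRT8, KRT18, MITF and OTX2 were above 20 CPM in every library, PMEL and BEST1 were below 3 CPM, and RPE65, TTR, RLBP1, TYR and CDH1 were at or near 0, so the visual-cycle markers that define the tissue were absent. The summed level of the 11 markers was 841 to 922 CPM in siCon and 445 to 639 CPM in siMK5. Of the 6 tested, 4 fell, 0 rose and 2 did not pass, with a median log2 fold change of −0.78. Of 8 markers of other cell types HBB, HBA1, PECAM1 and EPCAM were at 0 and only the collagen gene COL1A1 was high enough to be tested. It rose, with 39.7 to 67.7 CPM in siCon and 131 to 294 CPM in siMK5 libraries (edgeR adjusted p = 0.00605). The part of these markers in the results below was not tested.

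Among the 9 tested members 3 rose, 1 fell and 5 did not pass, beside 22.5% and 23.7% of all genes tested that rose and fell. The median log2 fold change of the 9 members was 0.077 and that of all genes tested was 0.000306. The ferritin subunits FTH1 and FTL rose 2.46-fold and 1.97-fold, the iron importer SLC11A2 rose 1.90-fold, the exporter SLC40A1 was 2.23-fold lower, and the transferrin receptor, both iron regulatory protein genes, GPX4 and ACSL4 did not pass. The libraries of the groups did not overlap for 5 of the 9, beside 60.4% of all genes tested, with siMK5 above siCon for 4 (30.6% of all) and below for 1 (29.8% of all). IREB2 is among the 4, although its closest siMK5 and siCon libraries were nearly equal, at 102.579 and 102.554 CPM. The 5 of 9 is near the share of all genes, while the counts in each direction rest on too few genes to compare. The 4 changes kept their direction and passed in all 14 alternative analyses. SLC11A2 and SLC40A1 came close to the threshold. Their highest edgeR adjusted p was 0.0489 without siCon replicate 2 for SLC11A2 and 0.0428 without siMK5 replicate 2 for SLC40A1. For FTL and FTH1 the highest was 0.0265 and 0.00855.

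**Figure D1:**
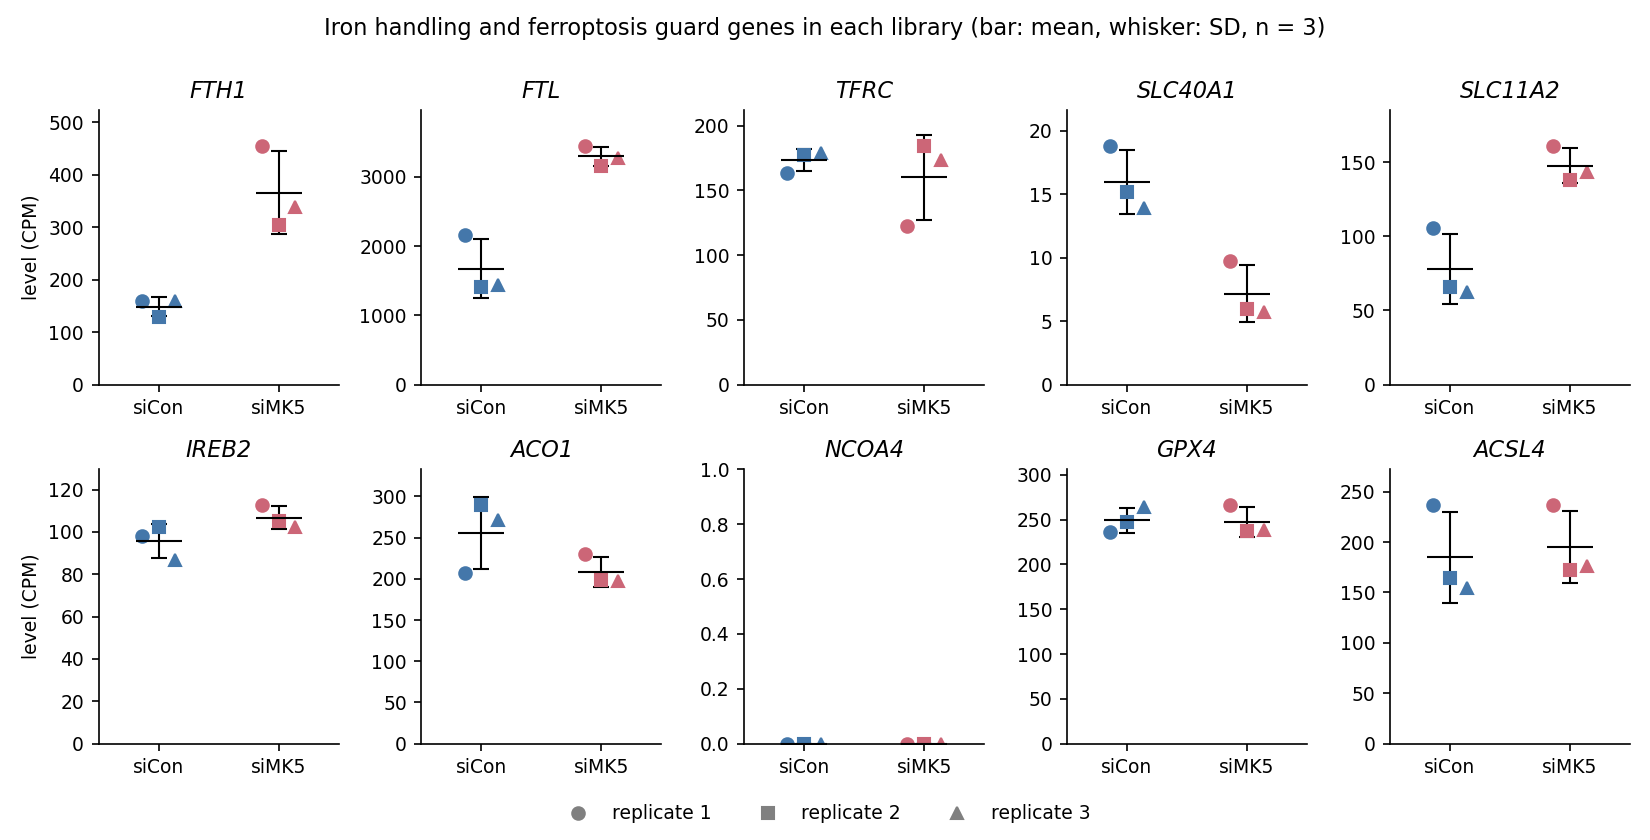
Level of each of the 10 genes in CPM (vertical axes, linear and starting at 0) in the 3 siCon and 3 siMK5 libraries. Points are libraries with a shape per replicate number, bars are means and whiskers are SD; FTH1, FTL and SLC11A2 are higher and SLC40A1 is lower in every siMK5 library than in every siCon library, and NCOA4 is at 0 throughout.

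Ferritin, the iron store, had the largest rise among the members. Because these are bulk samples, fewer cells of a kind and less RNA per cell cannot be told apart for any gene below. FTH1 (ENSG00000167996), the heavy subunit that oxidizes iron for storage, was at 159, 128 and 159 CPM in siCon replicates 1, 2 and 3 and at 455, 304 and 338 CPM in siMK5 replicates 1, 2 and 3. The lowest siMK5 library was well above the highest control library, and siMK5 replicate 1 was the highest of all. The mean rose 2.46-fold, or by 1.30 ± 0.18 on the log2 scale (SE; edgeR adjusted p = 0.00170). FTL (ENSG00000087086), the light subunit that helps form the iron core, was at 2164, 1410.1 and 1440.2 CPM in siCon and 3443, 3158 and 3276 CPM in siMK5 replicates 1, 2 and 3. The groups did not overlap, and siCon replicate 1 lay between the other controls and the siMK5 libraries. FTL rose 1.97-fold (log2 0.98 ± 0.18, edgeR adjusted p = 0.00548), and its counts made up between 0.139% and 0.345% of a library. Within replicate pairs 1, 2 and 3 the FTH1 difference was 1.51, 1.24 and 1.09 and the FTL difference 0.67, 1.16 and 1.19 on log2(CPM + 0.5).

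Near-identical copies limit how the ferritin levels can be read. Of the 50-base windows of the longest FTH1 coding transcript, 40.4% also occurred in transcripts of other genes, and 18.3% of those of FTL did, against 0% for TFRC, SLC40A1, SLC11A2, GPX4 and ACSL4. The 25 FTH1 pseudogene rows together held 9 to 19 counts in siCon and 33 to 49 in siMK5 libraries, at most 0.488% of the FTH1 count, with FTH1P23 the highest. The 16 FTL pseudogene rows held 3 to 5 counts in each library. How reads that match several places were handled is not given in the sources used here, so the FTH1 level and the ratio of FTL to FTH1 are uncertain. BEST1, which overlaps FTH1 on the opposite strand, was at 0.691 ± 0.241 CPM in siCon and 0.697 ± 0.185 CPM in siMK5.

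The mRNAs of a transporter into the cytosol and of the iron exporter changed in opposite directions. SLC11A2 (ENSG00000110911), the divalent metal transporter, was at 105, 65.8 and 62.5 CPM in siCon and 161, 138 and 144 CPM in siMK5 replicates 1, 2 and 3. All siMK5 libraries were above all controls, with siCon replicate 1 the nearest to them. It rose 1.90-fold, by 0.92 ± 0.21 on the log2 scale (edgeR adjusted p = 0.0116). SLC40A1 (ENSG00000138449), the only known iron exporter, was the lowest of the 9 counted members, at 18.8, 15.2 and 13.9 CPM in siCon and 9.74, 5.98 and 5.76 CPM in siMK5 replicates 1, 2 and 3. Every siMK5 library was below every control, and replicate 1 was the highest of its group on both sides. Its mean was 2.23-fold lower, or −1.16 ± 0.25 on the log2 scale (edgeR adjusted p = 0.00908). The replicate pairs gave 0.61, 1.06 and 1.19 for SLC11A2 and −0.91, −1.28 and −1.20 for SLC40A1.

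TFRC (ENSG00000072274), the receptor for iron-loaded transferrin, did not pass. Its levels were 164, 178 and 179 CPM in siCon and 123, 184 and 173 CPM in siMK5 replicates 1, 2 and 3. The groups overlapped, and the low siMK5 mean came from replicate 1 alone. The log2 fold change was −0.12 with a 95% interval from −0.50 to 0.27 (edgeR adjusted p = 0.591), and the value was 0.047 without siMK5 replicate 1. TFRC holds 4 of the elements printed above in its 3′ UTR. SLC11A2, which rose, holds a match there in 5 of its 11 coding transcripts, which the count per gene does not tell apart. A link between the elements and these values was not tested.

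**Figure D2:**
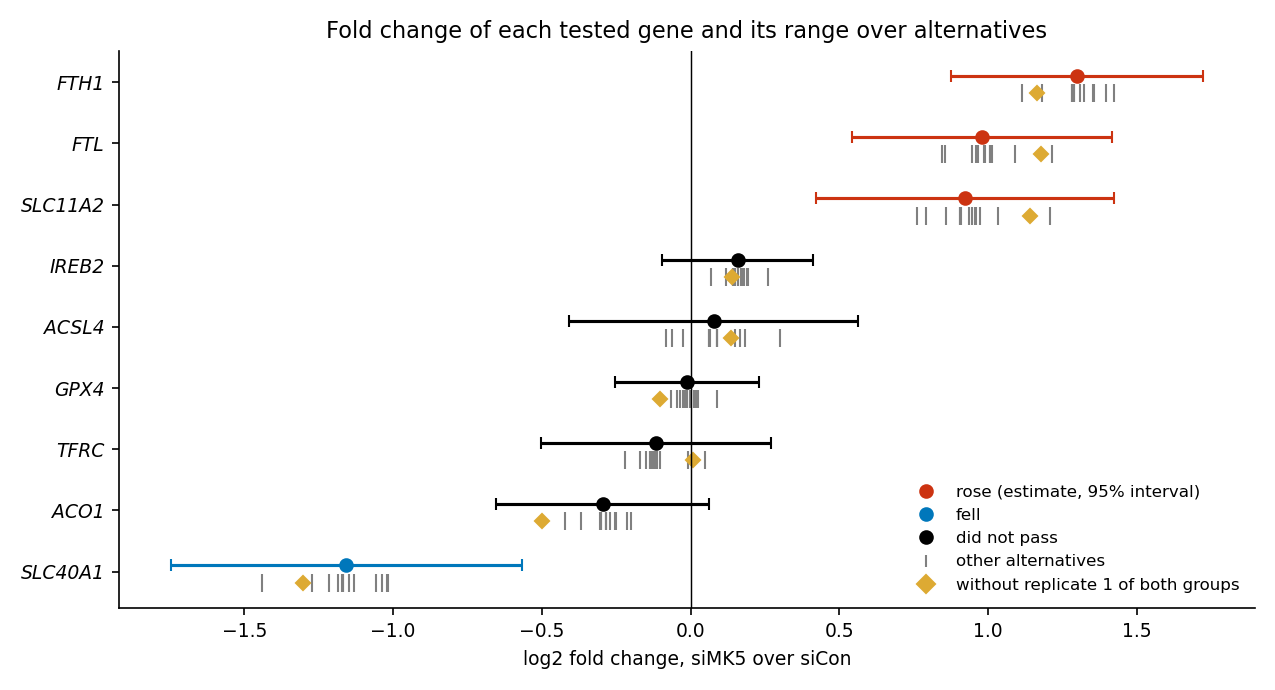
Log2 fold change (horizontal axis, siMK5 over siCon) of the 9 tested genes, with points for the estimate, whiskers for its 95% interval, grey ticks for the other alternative analyses and diamonds for the fit without replicate 1 of both groups. The intervals of FTH1, FTL, SLC11A2 and SLC40A1 stay clear of 0, and the diamond of ACO1 at −0.50 lies below its estimate of −0.30.

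The sensors of cytosolic iron differed in how steady they were. IREB2 (ENSG00000136381), whose protein is degraded when iron is plentiful, was at 98.04, 103 and 86.6 CPM in siCon and 113, 105 and 103 CPM in siMK5 replicates 1, 2 and 3. All siMK5 libraries were above all controls, but siMK5 replicate 3 at 102.579 CPM and siCon replicate 2 at 102.554 CPM were nearly equal. The difference between the groups did not pass (log2 0.16, 95% interval −0.095 to 0.41, edgeR adjusted p = 0.262). An antisense gene overlaps IREB2 in GENCODE 29, and the strand setting of the counting is not given. ACO1 (ENSG00000122729), which encodes cytosolic aconitase and, without its iron-sulfur cluster, IRP1, was at 207, 289 and 272 CPM in siCon and 229.8, 199 and 197 CPM in siMK5 replicates 1, 2 and 3. Only siCon replicate 1 lay among the siMK5 libraries. Over all libraries ACO1 did not pass (log2 −0.30, 95% interval −0.65 to 0.062, edgeR adjusted p = 0.150). Without siCon replicate 1 it fell by 0.42 (edgeR adjusted p = 0.00372), where 32.1% of all genes tested fell. Without replicate 1 of both groups it fell by 0.50 (edgeR adjusted p = 1.95e-07). That fit kept replicates 2 and 3 of each group, and 37.8% of genes fell in it, against 23.7% with all libraries.

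Ferritin turnover could not be read. NCOA4 (ENSG00000266412), the receptor that brings ferritin to autophagosomes, had 0 counts in all 6 libraries. If reads of this gene could be counted at all in this row, a count of 0 allows a level of at most 0.106 to 0.110 CPM per library, counting error only, with 3 counts taken as the limit. If the annotation or the counting lost the locus, which was not tested, the 0 bounds nothing. In GENCODE 29, 5.51% of the windows of its longest coding transcript also occurred in other genes, and its 3 pseudogene rows held 3 counts in all, in siCon replicate 2. NCOA4 is left out of every statement on direction.

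The guard and the driver of ferroptosis stayed within the spread of the libraries. GPX4 (ENSG00000167468), the selenoenzyme that reduces phospholipid peroxides, was at 236, 247 and 264 CPM in siCon and 266, 237 and 238 CPM in siMK5 replicates 1, 2 and 3. The groups overlapped fully, with a log2 fold change of −0.012 and a 95% interval from −0.25 to 0.23 (edgeR adjusted p = 0.930). GPX4 was the member with the narrowest interval. ACSL4 (ENSG00000068366), the acyl-CoA synthetase for arachidonate and related fatty acids, was at 237, 164 and 154 CPM in siCon and 237, 173 and 176 CPM in siMK5 replicates 1, 2 and 3. Replicate 1 was the highest of both groups and equal between them. The log2 fold change was 0.077 with a 95% interval from −0.41 to 0.56 (edgeR adjusted p = 0.779). Without replicate 1 of both groups ACSL4 was higher by 0.14 (edgeR adjusted p = 0.0431), and without siMK5 replicate 1 the value was −0.082. In the first of these fits 37.9% of all genes tested rose, against 22.5% with all libraries.

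Replicate 1 differed from replicates 2 and 3 in several members. In siCon its log2 level differed from the mean of replicates 2 and 3 by 0.71 in SLC11A2, 0.60 in FTL, 0.57 in ACSL4, 0.36 in SLC40A1 and −0.44 in ACO1. IREB2, GPX4, TFRC and FTH1 differed by 0.056, −0.11, −0.12 and 0.15 there. In siMK5 the largest such differences were 0.69 in SLC40A1, −0.54 in TFRC and 0.50 in FTH1. For FTL, SLC11A2 and ACO1 the shift of control replicate 1 pointed toward the siMK5 libraries, and their log2 fold changes without it were 1.21, 1.21 and −0.42. These values lie farther from 0 than with it, which follows from the direction of the shift. ACSL4 went from 0.077 to 0.30 in the same way. SLC40A1 shifted away from the siMK5 libraries, and its value without control replicate 1 was −1.02.

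Levels of different genes can be compared only per length, here as CPM per kilobase of annotated exons in GENCODE 29. In siCon, FTL led with 1904 ± 486, followed by GPX4 with 202 ± 11.6 and FTH1 with 91.9 ± 10.8. ACSL4 (34.6 ± 8.43), ACO1 (33.9 ± 5.76) and TFRC (32.6 ± 1.61) did not differ beyond their spread, and neither did SLC11A2 (10.7 ± 3.27) and IREB2 (10.1 ± 0.863). SLC40A1 came last with 4.64 ± 0.740. In siMK5 the level per kilobase of FTL was 3750 ± 163, FTH1 was at 226 ± 49.0 beside GPX4 at 201 ± 13.4, SLC11A2 was at 20.3 ± 1.63 against 11.2 ± 0.552 for IREB2, and SLC40A1 was at 2.08 ± 0.650.

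Ratios taken within a library show these shifts side by side. SLC11A2 over SLC40A1, per kilobase, was 2.65, 2.05 and 2.13 in siCon and 7.81, 10.9 and 11.8 in siMK5 replicates 1, 2 and 3. The ratio of summed ferritin to TFRC was 83.4, 50.5 and 51.7 in siCon and 182, 109 and 121 in siMK5. Neither ratio overlapped between the groups. FTL over FTH1 did overlap, at 25.1, 20.2 and 16.7 in siCon and 13.9, 19.2 and 17.9 in siMK5. ACO1 over IREB2 was 2.65, 3.55 and 3.94 in siCon and 2.57, 2.37 and 2.42 in siMK5, with siCon replicate 1 close to the siMK5 libraries. These ratios combine genes whose changes are given above and were not tested.

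**Figure D3:**
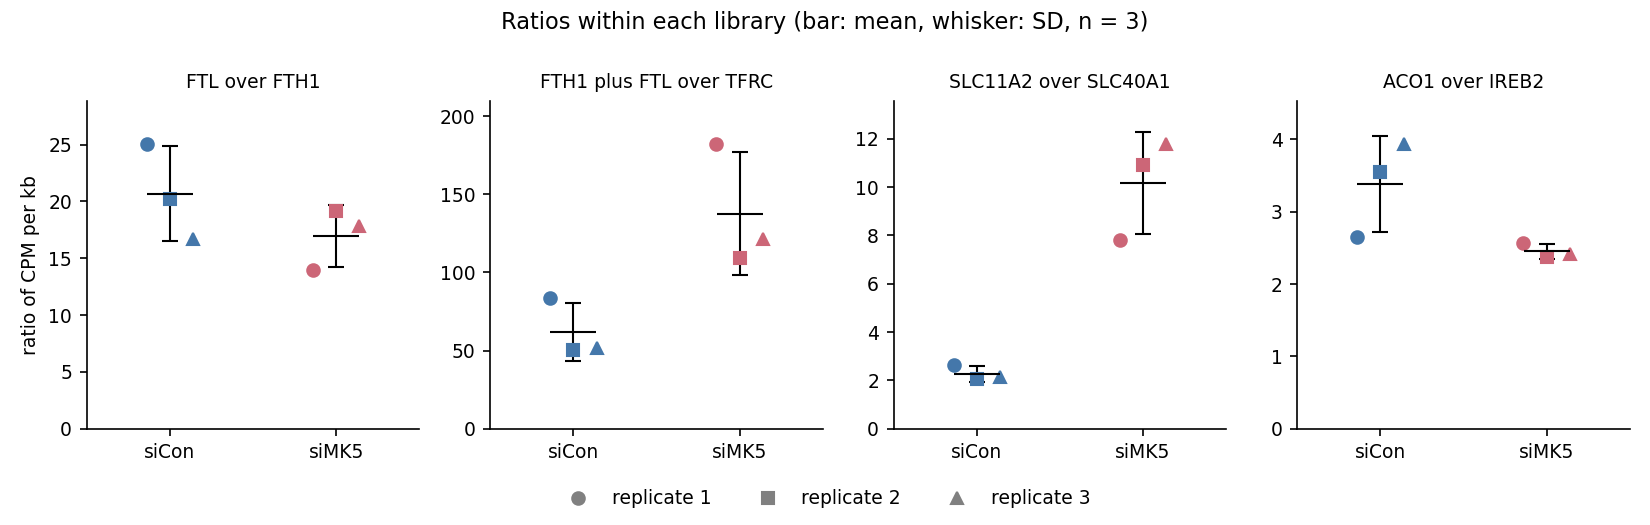
Ratios of CPM per kilobase within each library (vertical axes, linear and starting at 0) in the 3 siCon and 3 siMK5 libraries, with a point shape per replicate number, bars for means and whiskers for SD. SLC11A2 over SLC40A1 lies between 2.05 and 2.65 in siCon and between 7.81 and 11.8 in siMK5, while FTL over FTH1 overlaps between the groups.

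Genes whose UTR matched an iron-responsive element, members included, moved in both directions, as all genes tested did. Of 22 tested genes with a match of 5 of 5 pairs in the 5′ UTR, FTH1, FTL and SLC40A1 among them, 5 rose and 7 fell, with a median log2 fold change of 0.12. Of 102 with such a match in the 3′ UTR, TFRC among them, 17 rose and 24 fell, with a median of 0.0063. Among all genes tested 3020 rose and 3186 fell, or 22.5% and 23.7%. A difference of the matched genes from these shares was not tested.

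The wider pathway was read from 9 lists of textbook genes, 157 in all, of which 145 were tested. Of these 44 rose, 32 fell and 69 did not pass, with a median log2 fold change of 0.12. Among all genes tested 22.5% rose and 23.7% fell, and the counts of each list below stand beside these same shares. Without siMK5 replicate 2 the numbers were 27 and 21, without siMK5 replicate 3 they were 28 and 24, without siCon replicate 3 they were 29 and 29, without siCon replicate 1 they were 66 and 40, and without replicate 1 of both groups 72 and 51. The shares over all genes moved with them. They were 15.1% and 15.4% without siMK5 replicate 2, 15.4% and 15.8% without siMK5 replicate 3, 17.0% and 20.2% without siCon replicate 3, 32.3% and 32.1% without siCon replicate 1, and 37.9% and 37.8% without replicate 1 of both groups. For the other omissions used below, the shares were 17.0% and 19.9% without siCon replicate 2 and 18.2% and 18.9% without siMK5 replicate 1.

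**Figure D4:**
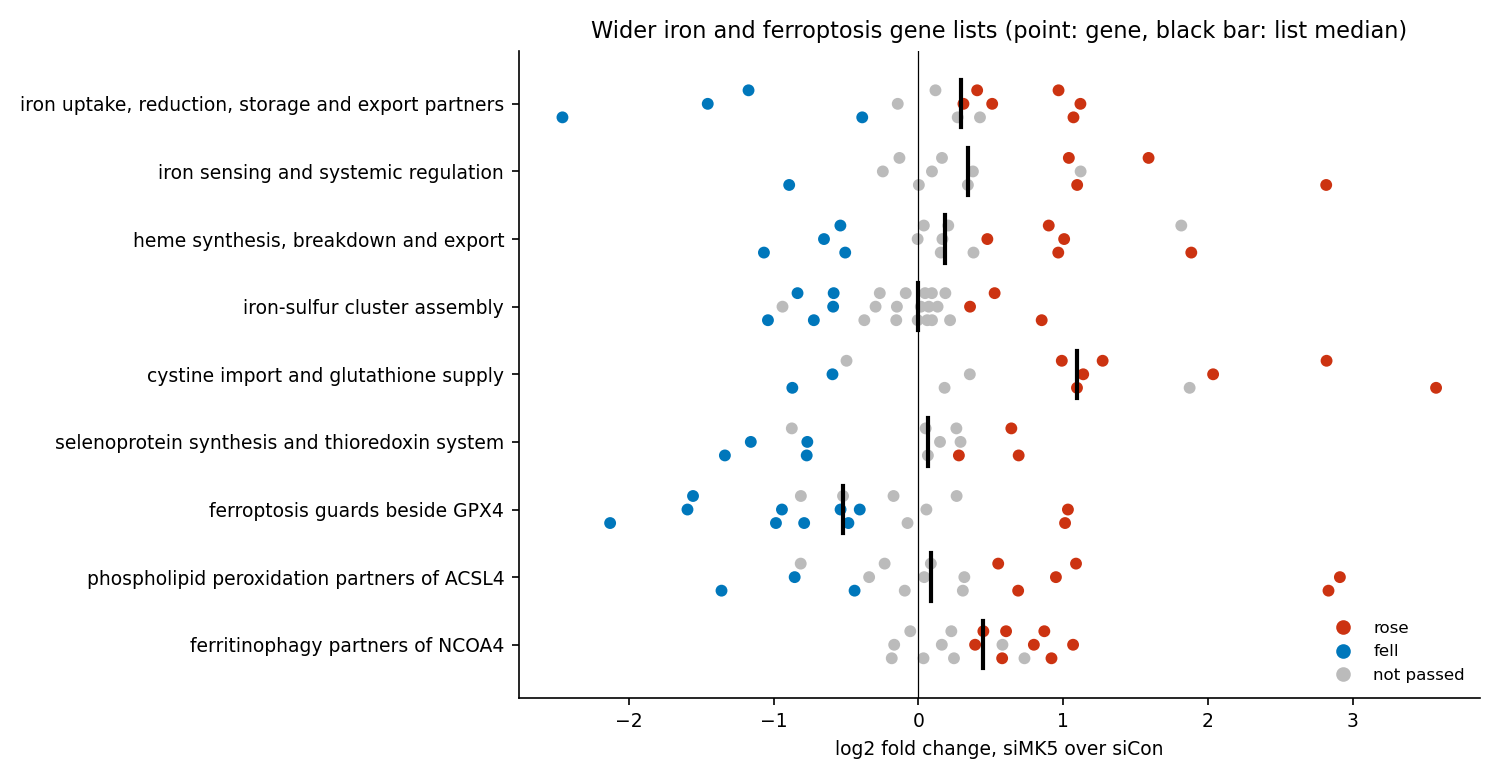
Log2 fold change (horizontal axis, siMK5 over siCon) of each tested gene in the 9 wider lists, 1 row of points per list, coloured by whether the gene rose, fell or did not pass, with a black bar at the list's median. The median is highest for cystine import and glutathione supply, at 1.10, and lowest for the ferroptosis guards beside GPX4, at −0.52.

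Partners of iron uptake, storage and export changed in both directions. Of 14 tested, 6 rose and 4 fell, with a median of 0.29. STEAP3, the ferrireductase that reduces iron in transferrin endosomes, fell from 329 ± 42.5 to 59.7 ± 6.999 CPM (log2 −2.46 ± 0.15, edgeR adjusted p = 0.000201). The related STEAP1 fell by 1.17 ± 0.21 (edgeR adjusted p = 0.00442). SLC39A8, a zinc transporter that also carries iron, rose by 1.12 ± 0.25 and MCOLN1, the lysosomal cation channel, by 1.07 ± 0.24 (edgeR adjusted p = 0.0108 and 0.0102). The endosomal reductase thus fell while the endosomal transporter SLC11A2 rose and the receptor TFRC did not pass. Without siMK5 replicate 3 the list had 3 rises and without siMK5 replicate 2 it had 2 falls.

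In the list of iron sensing and systemic regulation, 4 of 13 rose and 1 fell, with a median of 0.34. EPAS1, the hypoxia-inducible factor HIF-2α, was at 48.5, 45.4 and 44.8 CPM in siCon and 369, 308 and 302 CPM in siMK5 replicates 1, 2 and 3. It rose 7.05-fold (log2 2.82 ± 0.12, edgeR adjusted p = 0.000148). SMAD7, an inhibitor of BMP and TGF-beta signals, rose by 1.04 ± 0.15, and SKP1, the adaptor of the ubiquitin ligase that degrades IRP2, fell by 0.89 ± 0.09 (edgeR adjusted p = 0.00194 and 0.000628). FBXL5, the iron-sensing subunit of that ligase, did not pass at −0.25 ± 0.17 (edgeR adjusted p = 0.259). Without replicate 1 of both groups FBXL5 fell by 0.33 (edgeR adjusted p = 6.93e-05), in a fit where 37.8% of all genes tested fell. NEO1, a coreceptor of BMP signals, rose by 1.10 ± 0.38 (edgeR adjusted p = 0.0496), which did not pass without siCon replicate 2 or 3 or without any 1 siMK5 replicate (edgeR adjusted p from 0.111 to 0.148) or with RLE scaling (edgeR adjusted p = 0.0548). Its log2 value was 1.69 without siCon replicate 1 and 1.71 without replicate 1 of both groups. Without each of these 5 libraries 2 genes of the list rose, and without siCon replicate 1 there were 8.

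Heme genes were mixed, with 5 of 16 rising and 4 falling and a median of 0.19. HMOX1, heme oxygenase 1, which frees iron from heme, rose 3.70-fold, from 34.7 ± 3.64 to 128 ± 13.7 CPM (edgeR adjusted p = 0.000229). The heme exporter FLVCR1 rose by 0.97 ± 0.20 (edgeR adjusted p = 0.00760). ALAD, an enzyme of heme synthesis, rose by 1.01 ± 0.27 (edgeR adjusted p = 0.0213), which did not pass without siCon replicate 2 or 3 or without any 1 siMK5 replicate (edgeR adjusted p from 0.0595 to 0.0774). Without these 5 libraries in turn, 2 or 3 genes of the list rose, and without replicate 1 of both groups 9 did.

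Of 25 tested genes of iron-sulfur cluster assembly 3 rose and 5 fell, with a median of −0.0050. ISCA2, a late assembly factor, fell by 1.04 ± 0.17, NFS1, the cysteine desulfurase that supplies sulfur, fell by 0.84 ± 0.17, and IBA57, a partner of ISCA2, rose by 0.85 ± 0.14 (edgeR adjusted p from 0.00323 to 0.00684). BOLA3 fell by 0.72 ± 0.23 (edgeR adjusted p = 0.0373), which did not pass without siCon replicate 2 or 3, without any 1 siMK5 replicate or with unscaled library totals (edgeR adjusted p from 0.0731 to 0.113). Without siCon replicate 1 the list had 6 rises and 8 falls, without siMK5 replicate 2 or 3 it had 3 falls, and without replicate 1 of both groups it had 8 rises and 10 falls.

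Of 13 tested genes that supply cystine and glutathione, the cosubstrate of GPX4, 7 rose and 2 fell, with a median log2 fold change of 1.10. SLC7A11, the cystine importer, was at 49.5, 23.5 and 24.4 CPM in siCon and 212, 216 and 260.2 CPM in siMK5 replicates 1, 2 and 3, a 7.06-fold rise (log2 2.82 ± 0.31, edgeR adjusted p = 0.000798). CTH and CBS, which make cysteine from homocysteine, rose by 3.58 ± 0.41 and 2.04 ± 0.12, and the glutamine importer SLC1A5 by 1.27 ± 0.14 (edgeR adjusted p from 0.000201 to 0.000863). Without siCon replicate 1 the log2 value of CTH was 4.21. SLC3A2, the partner chain of SLC7A11, and GCLC and GCLM, the subunits of the enzyme that starts glutathione synthesis, were picked after their values were seen and rose by 1.10 ± 0.12, 0.99 ± 0.22 and 1.14 ± 0.13 (edgeR adjusted p from 0.000720 to 0.00968). The 2 falls, also named after their values were seen, were in GSS, the enzyme that completes glutathione, with 61.6, 79.5 and 85.6 CPM in siCon and 36.0, 42.6 and 45.3 CPM in siMK5 replicates 1, 2 and 3 (log2 −0.87 ± 0.16, edgeR adjusted p = 0.00483), and in ABCC1, an exporter of glutathione conjugates (log2 −0.59 ± 0.11, edgeR adjusted p = 0.00465). The list thus held changes in both directions along glutathione synthesis. NFE2L2, which encodes the transcription factor NRF2, rose by 0.49 ± 0.09 (edgeR adjusted p = 0.00526). The activity of NRF2 was not measured, and its part in the changes of this list was not tested.

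Selenoprotein synthesis and the thioredoxin system had 3 rises and 4 falls among 13 tested, with a median of 0.065. GPX1, the cytosolic glutathione peroxidase, fell from 367 ± 116 to 145 ± 6.59 CPM (log2 −1.34 ± 0.24, edgeR adjusted p = 0.00428), whereas GPX4 did not pass; the difference between them was not tested. SEPHS1, a relative of the selenophosphate synthetase, fell by 1.16 ± 0.09, the peroxiredoxin gene PRDX1 fell by 0.77 ± 0.10 and TXN, thioredoxin, fell by 0.77 ± 0.17 (edgeR adjusted p from 0.000315 to 0.00928). With replicate number as a block 1 gene of this list rose, as it did without siCon replicate 2 or 3 or without siMK5 replicate 2 or 3, and without siCon replicate 1 there were 5.

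Of 17 tested ferroptosis guards beside GPX4, 9 fell and 2 rose, with a median of −0.52. AIFM2, which encodes FSP1, the ubiquinone reductase that protects membranes independently of GPX4, was at 45.6, 39.9 and 43.8 CPM in siCon and 30.0, 29.6 and 33.0 CPM in siMK5 replicates 1, 2 and 3. The change of −0.48 ± 0.11 passed (edgeR adjusted p = 0.0111), and leaving out siMK5 replicate 2 ended that call (edgeR adjusted p = 0.0650). DHODH, the mitochondrial ubiquinone-reducing enzyme of pyrimidine synthesis, fell from 11.2 ± 1.52 to 3.70 ± 0.538 CPM (log2 −1.60 ± 0.20, edgeR adjusted p = 0.00108). PDSS2, of coenzyme Q synthesis, rose by 1.03 ± 0.23 (edgeR adjusted p = 0.00947). MBOAT1, a lysophospholipid acyltransferase, fell by 2.13 ± 0.58 (edgeR adjusted p = 0.0224), from 20.6 CPM in siCon replicate 1 and 5.64 and 4.94 CPM in the other controls. Without siCon replicate 1 its log2 value was −1.15, and without replicate 1 of both groups −1.06. MBOAT1 did not pass with the replicate block (edgeR adjusted p = 0.0540) or without any 1 siMK5 replicate (edgeR adjusted p from 0.0580 to 0.0855). Without siMK5 replicate 1, 2 or 3 the list had 5, 4 and 5 falls, and without replicate 1 of both groups 13 falls and 4 rises.

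Partners of ACSL4 in phospholipid peroxidation had 6 rises and 3 falls among 17 tested, with a median of 0.086. LPCAT3, which places the fatty acids activated by ACSL4 into phospholipids, was level at 27.8 ± 2.35 and 28.6 ± 2.05 CPM (log2 0.040, 95% interval −0.25 to 0.33, edgeR adjusted p = 0.806). POR, the electron donor of cytochromes P450, rose by 0.69 ± 0.11, the acyltransferase gene AGPAT3 fell by 1.36 ± 0.09, and GNPAT, which starts ether lipid synthesis, fell by 0.86 ± 0.10 (edgeR adjusted p from 0.000209 to 0.00280). ACSL1 rose by 0.95 ± 0.32 (edgeR adjusted p = 0.0478), which did not pass with RLE scaling (edgeR adjusted p = 0.0540), without siCon replicate 2 or 3 or without any 1 siMK5 replicate (edgeR adjusted p from 0.0984 to 0.147). Without siMK5 replicate 2 or 3 the list had 3 rises, without siCon replicate 1 it had 5 falls and without replicate 1 of both groups 6.

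Of 17 tested partners of NCOA4 in ferritinophagy, the lysosomal breakdown of ferritin, 8 rose and 0 fell, with a median of 0.45. LAMP1, a lysosomal membrane protein, rose from 308 ± 13.0 to 562 ± 25.6 CPM and MAP1LC3B, which coats autophagosomes, from 114 ± 3.11 to 198 ± 10.3 CPM (log2 0.87 ± 0.10 and 0.80 ± 0.09, edgeR adjusted p = 0.000798 and 0.000988). GABARAPL1, of the same family as MAP1LC3B, rose by 1.07 ± 0.24 (edgeR adjusted p = 0.0104). LAMP2 rose by 0.92 ± 0.24 (edgeR adjusted p = 0.0179), which did not pass without siCon replicate 2 or 3 or siMK5 replicate 1 or 2 (edgeR adjusted p from 0.0511 to 0.0695). Without siCon replicate 3 or siMK5 replicate 2 the list had 4 rises, without siCon replicate 2, siMK5 replicate 1 or siMK5 replicate 3 it had 5, and without siCon replicate 1 it had 1 fall and without replicate 1 of both groups 2.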

How the data were processed

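Per the submitters' processing notes, the tools were HTSeq 0.9.1, TopHat2 2.1.1, Trimmomatic 0.36 and FastQC, with the build GRCh37. The annotation release was not given in the sources used here, nor was the strand setting. The deposited values are whole-number counts per gene and library, despite a table name with CPM in it. With R 4.3.3 and edgeR 4.0.16, genes kept by filterByExpr (least count 10, least total 15) were TMM-scaled and tested with the quasi-likelihood test, two-sided, with Benjamini-Hochberg adjustment over 13431 genes. A repeated symbol took the row of highest mean. The standard error is the log2 fold change over the root of F. Alternatives used RLE or no scaling, DESeq2 1.42.0, limma 3.58.1 on log2(CPM + 0.5), other filters, a replicate block and omitted libraries. The submitters call the libraries biological replicates; if replicates are not separate cultures, p-values measure technical spread only.

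The members and lists were chosen with earlier results of these data known. The genes named are the members, MAPKAPK5, SLC7A11, HMOX1, AIFM2, FBXL5, LPCAT3, NFE2L2 and, per list, up to 4 passing genes with the largest change and a mean of at least 5 CPM. Deviations from group means correlated across genes at 0.258, 0.206 and 0.248 between libraries of the same replicate number, each above 0.1. Replicates 2 and 3 of opposite groups correlated at 0.151 and 0.182, also above 0.1. Replicate 1 correlated with replicates 2 and 3 of the other group at −0.263 to −0.208. These values do not decide which libraries are paired, and no day or batch is in the labels. The replicate pairs above and the block follow the numbers alone. The reported fit has no block, and the block is an alternative. A listed gene was not analysed here, and some genes that the rule names are not reported here. GENCODE 29 (GRCh38) served for UTRs, lengths and sequence windows, matched by gene identifier, and no coordinate of it was joined to the GRCh37 counts.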

Additional observations from a re-analysis of the deposited data

How the results depend on the processing

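The 3 rises and 1 fall among the members were found under RLE scaling, unscaled totals, DESeq2, limma, both other filters and the replicate block. With single libraries left out there were 3 rises and 1 to 2 falls, and without replicate 1 of both groups 4 rises and 2 falls, the added calls being ACSL4 and ACO1. With the replicate block 41 pathway genes rose and 31 fell, and among the named genes only MBOAT1 lost its call; among the lists, only the rises in the selenoprotein list moved by over 1.5 times. Single omissions gave 27 to 66 pathway rises and 21 to 40 falls, and without replicate 1 of both groups there were 72 and 51. Unscaled totals shifted the median log2 fold change of all genes to 0.10 and turned GPX4 to 0.087. Among genes that did not pass, single omissions gave −0.066 to 0.025 for GPX4, −0.082 to 0.30 for ACSL4, −0.22 to 0.047 for TFRC and −0.047 to 0.11 for LPCAT3, and TFRC was at 0.0076 without replicate 1 of both groups. The cause of these shifts was not tested. The common biological coefficient of variation was 21.2%. Across all genes 3020 rose and 3186 fell; single omissions gave 2064 to 4455 rises and 2103 to 4419 falls, and without replicate 1 of both groups there were 5195 and 5177. Unscaled totals moved the share of rises among calls from 48.7% to 56.6%.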
